A study of Brachypodium distachyon with 12 samples.

Results

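A set of 18 transcripts was more abundant in every stem parenchyma library than in any vascular bundle (VB) library of Brachypodium distachyon. Levels are given in CPM, the read pairs of a transcript per 1000000 read pairs of its library, with the dominant transcript Bradi2g12067.1 left out of counts and totals. The transcripts were chosen by these measured levels: one entered the set when its mean over the 3 parenchyma libraries was at least 5 CPM and its lowest parenchyma value was more than 4 times the highest value of the 9 VB libraries. Of the 34310 transcripts in the files, 28194 had at least 1 pair in some library and 13855 reached the mean of 5 CPM in parenchyma. In 483 of these 13855 (3.49%) the lowest parenchyma library lay above the highest VB library, and 18 passed the 4-fold limit. Because parenchyma and VB values chose these transcripts, their difference between the tissues is a description. A fit over all transcripts is given for this contrast only as background, and nothing is read from it for the set.

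The 12 libraries were made from tissue cut with a laser out of sections of the shoot apex of wild-type Bd21-3 plants, aged 19 days by the labels, grown in soil under 18 h of light without treatment. VB type 1 had no visible protoxylem cell, VB type 2 had 1 to 2 and VB type 3 had 3 to 4 by the labels, and parenchyma, labelled as the control, came from the centre of the stem. Each group had 3 libraries, amplified from 500 pg of RNA. The series record speaks of 1 biological replicate and the paper of 3 from few plants each, so p-values measure only the spread between these libraries, which may be partly technical.

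Parenchyma is the ground tissue of the grass stem. Its thin-walled, vacuolated cells fill the space between the bundles, store water and solutes, and in young stems often hold plastids. The bundles hold xylem, phloem and dividing procambium cells, and are the route of long-distance transport. Genes of carriers, defence chemistry and small secreted proteins are known from ground tissue as well as from the epidermis.

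The pairs counted outside Bradi2g12067.1 ranged from 9080187 to 23109703 in 11 libraries and came to 1768043 in parenchyma replicate 3, where that transcript took 86.3% of all pairs. A count of 3 pairs, taken as the detection limit, was 1.70 CPM in parenchyma replicate 3 and up to 0.330 CPM in the VB libraries. Intervals and limits cover counting error only, since the reads carry no molecular identifiers. XCP1 (Bradi2g39320.2), a cysteine protease of xylem vessels, was measured at 2.34 to 29.1 CPM in parenchyma and 313 to 1965 CPM in VBs. TMO6, PXY and PIN1a, genes of procambium and auxin transport, were likewise higher in every VB library than in every parenchyma library. PIN1a was not low throughout parenchyma, with 62.9, 16.9 and 3.96 CPM, against 94.2 to 289 CPM in VBs. The phloem sugar transporter locus Bradi3g10270.1 had 1.29 to 9.35 CPM in parenchyma and 21.5 to 570 CPM in VBs. Another such locus, Bradi4g07570.1, had pairs only in VB type 1 replicate 3 (2.74 CPM) and was too sparse for this check. The study names no marker of parenchyma, so the label of the parenchyma libraries was checked only by the lower level of bundle genes. In bulk tissue, fewer cells of a type and less RNA per cell cannot be told apart.

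The name parenchyma-restricted holds only in part. No pair was found in any VB library for 2 of the 18 transcripts, whereas 16 had pairs in at least 1 VB library. At least 1 CPM was reached in some VB library by 15 and in all 9 VB libraries by 4. At least 10 CPM was reached in every VB library by 2. Descriptions came from the best Arabidopsis or rice hits in the study's tables, which describe 15 of the 18. Each of the 18 loci had a single transcript model in the files. By locus name, chromosomes 1, 2 and 4 hold 4 each and chromosomes 3 and 5 hold 3 each.

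**Figure D1:**
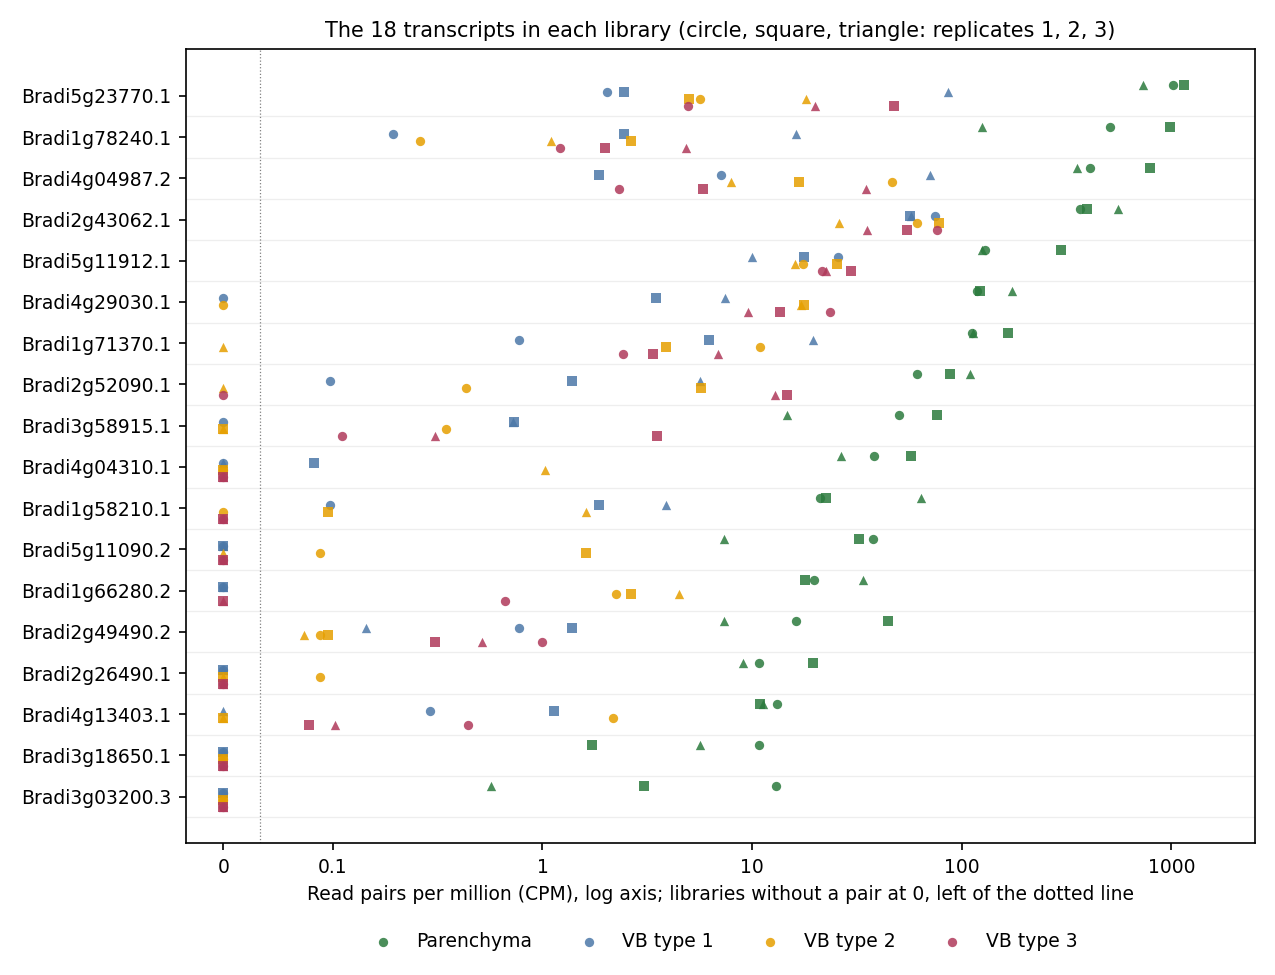
CPM of the 18 transcripts (rows, ordered by their parenchyma mean) in each of the 12 libraries on a log axis, with colours for the groups, shapes for the replicates, and libraries without a pair at 0. Parenchyma points lie to the right in every row, and Bradi2g43062.1 and Bradi5g11912.1 keep 10 CPM or more in all VB libraries.

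Lipid transfer proteins accounted for 2 of the 18. These small secreted proteins bind lipids and are best known from the plant surface and from defence. Bradi5g23770.1 (LTPL128 family) had 1019, 1150 and 732 CPM in parenchyma replicates 1, 2 and 3. In VB type 1 it had 2.03, 2.44 and 86.3 CPM, in VB type 2 5.62, 5.02 and 18.1 CPM, and in VB type 3 4.96, 47.8 and 19.9 CPM. The parenchyma values differed by 1.57-fold, whereas the VB libraries ranged over more than an order of magnitude and replicate 3 of VB type 1 stood above the rest. The mean was 967 ± 213 CPM (SD, n = 3) in parenchyma and 21.4 ± 28.4 CPM (SD, n = 9) in VBs, a ratio of 45.3. Per kilobase of transcript its parenchyma mean, 478 CPM per kb, was the highest of the set and ranked 159 among the 23498 transcripts detected in parenchyma.

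Bradi1g78240.1 (LTPL113 family) had 511, 989 and 124 CPM in parenchyma replicates 1, 2 and 3. It had 0.193, 2.44 and 16.3 CPM in VB type 1, 0.259, 2.65 and 1.10 CPM in VB type 2, and 1.21, 2.00 and 4.83 CPM in VB type 3. Again VB type 1 replicate 3 was the highest VB library, and parenchyma replicate 3 was the lowest parenchyma library. The ratio of means, 542 ± 433 CPM (SD, n = 3) to 3.44 ± 5.02 CPM (SD, n = 9), was 157. The spread within parenchyma, 7.95-fold, was wider than that of Bradi5g23770.1.

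The transporters were represented by 3 transcripts. Bradi2g43062.1 is closest to BAT1, a carrier that moves amino acids in and out of cells in Arabidopsis. It had 366, 395 and 557 CPM in parenchyma, and 74.2, 56.6 and 57.2 CPM in VB type 1, 61.4, 77.6 and 26.03 CPM in VB type 2 and 76.3, 54.6 and 35.1 CPM in VB type 3. Hence the VB level was lower but steady, at 57.7 ± 17.9 CPM (SD, n = 9) against 439 ± 103 CPM (SD, n = 3). At 13.1% of the parenchyma mean, its VB mean was the highest share of the 18.

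Bradi1g71370.1 is closest to PMT5, a proton-coupled carrier of sugar alcohols and monosaccharides. It had 112, 166 and 113 CPM in parenchyma, 0.772, 6.25 and 19.4 CPM in VB type 1, 10.9, 3.88 and 0 CPM in VB type 2, and 2.42, 3.38 and 6.88 CPM in VB type 3. No order of the VB types was visible in these values. Bradi4g04310.1, of the major facilitator superfamily and similar to the animal protein UNC-93, had 38.0, 57.2 and 26.6 CPM in parenchyma. Its 9 VB libraries held 15 pairs in all, of which 14 were in VB type 2 replicate 3 (1.02 CPM) and 1 was in VB type 1 replicate 2. The lowest parenchyma value was 25.97 times the highest VB value. Without VB type 2 replicate 3 it was 109 times the detection limit of the highest VB library left, so a single library set the size of this ratio.

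Enzymes of specialised metabolism formed the next group. Bradi4g04987.2, a terpene synthase by description, which would make volatile or defensive terpenoids, had 410, 793 and 355 CPM in parenchyma. It had 7.14, 1.87 and 70.4 CPM in VB type 1, 46.6, 16.7 and 7.97 CPM in VB type 2, and 2.31, 5.83 and 35.0 CPM in VB type 3. The VB libraries of every type were thus far apart, and the ratio of means was 24.1. Bradi2g52090.1, a polyphenol oxidase by its rice hit, an enzyme that oxidises phenols to quinones, had 61.0, 88.4 and 110 CPM in parenchyma. It had 0.0965, 1.38 and 5.62 CPM in VB type 1, 0.432, 5.68 and 0 CPM in VB type 2, and 0, 14.7 and 12.8 CPM in VB type 3. Thus VB type 3 held both its highest VB values and a library without a pair.

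Bradi1g58210.1, an aldo/keto reductase by description, had 21.0, 22.6 and 63.9 CPM in parenchyma. Its VB values were 0.0965, 1.87 and 3.89 CPM in type 1, 0, 0.0947 and 1.61 CPM in type 2, and 0 in all libraries of type 3. Bradi2g26490.1 is closest to CYP71B2, of a large family of cytochrome P450 oxygenases. It had 10.7, 19.5 and 9.05 CPM in parenchyma, whereas 1 single pair was counted in the 9 VB libraries, in VB type 2 replicate 1. Its lowest parenchyma value was 105 times that VB value, with an exact 95% counting interval from 16.3 to 4392. With the VB value set at the detection limit of 3 pairs, the ratio of 34.9 was still the largest of the set.

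A further group comprised an inhibitor, a stress protein and a likely scaffold. Bradi5g11090.2 belongs to the inhibitors of invertase and pectin methylesterase, which restrain sucrose cleavage or the hardening of pectin. It had 37.9, 32.3 and 7.35 CPM in parenchyma, the last from 13 pairs, and 18 pairs in all VB libraries, 17 of them in VB type 2 replicate 2 (1.61 CPM). Without that library its lowest parenchyma value was 28.4 times the highest VB value or the detection limit, in place of 4.57, and without parenchyma replicate 3 it was 20.1 times. Bradi3g58915.1, with a lipid-associated PLAT/LH2 domain and described as a wound and stress protein, had 50.2, 76.4 and 14.7 CPM in parenchyma. It had 0, 0.731 and 0.720 CPM in VB type 1, 0.346, 0 and 0 CPM in VB type 2, and 0.110, 3.53 and 0.308 CPM in VB type 3, with VB type 3 replicate 2 above the rest. The ratio of its lowest parenchyma to its highest VB value was 4.16, and was 20.1 without VB type 3 replicate 2 and 14.2 without parenchyma replicate 3. Bradi2g49490.2 is closest to IQD26, of a family of calmodulin-binding proteins tied to microtubules, and had 16.2, 44.4 and 7.35 CPM in parenchyma, the last again from 13 pairs. Every VB library held at least 1 pair of it, at 0.0731 to 1.38 CPM. Its VB type 2 libraries, at 1 pair each, and VB type 1 replicate 3, at 2 pairs, were below the detection limit of 3 pairs.

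The other 6 transcripts have general or no descriptions. Bradi4g29030.1, of the haloacid dehalogenase-like hydrolases, had 119, 122 and 173 CPM in parenchyma and 0, 17.7 and 17.1 CPM in VB type 2, and its other VB values are given with the comparison of VB types. The mean was 138 ± 30.5 CPM (SD, n = 3) in parenchyma and 10.3 ± 8.31 CPM (SD, n = 9) in VBs. Bradi5g11912.1, listed without a description, had 129, 296 and 126 CPM in parenchyma and 25.6, 17.6 and 10.01 CPM in VB type 1, 17.5, 25.5 and 15.9 CPM in VB type 2 and 21.5, 29.8 and 22.4 CPM in VB type 3. Like Bradi2g43062.1 it was thus present in every bundle library, at a mean of 20.6 ± 6.01 CPM (SD, n = 9) against 183 ± 97.6 CPM (SD, n = 3). Bradi4g13403.1, described only as an expressed protein, had the steadiest parenchyma values, 13.2, 10.9 and 11.3 CPM. It had 0.290, 1.14 and 0 CPM in VB type 1, 2.16, 0 and 0 CPM in VB type 2, and 0.441, 0.0768 and 0.103 CPM in VB type 3. No VB type stood apart in these values.

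Bradi3g18650.1 and Bradi3g03200.3, for which the tables give no description, had no pair in any VB library. Bradi3g18650.1 had 10.7, 1.72 and 5.66 CPM in parenchyma, from 248, 32 and 10 pairs, and its mean was at least 18.3-fold above the limit of 3 pairs per VB library. Bradi3g03200.3 had 13.0, 3.06 and 0.566 CPM, from 300, 57 and 1 pair. The exact 95% interval of the last value ran from 0.0143 to 3.15 CPM. Against the VB detection limit its lowest parenchyma value was higher by 1.71 times only, so that this transcript is a member through the absence of VB pairs and a single pair in parenchyma replicate 3. Without that library the ratio was 9.27.

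**Figure D2:**
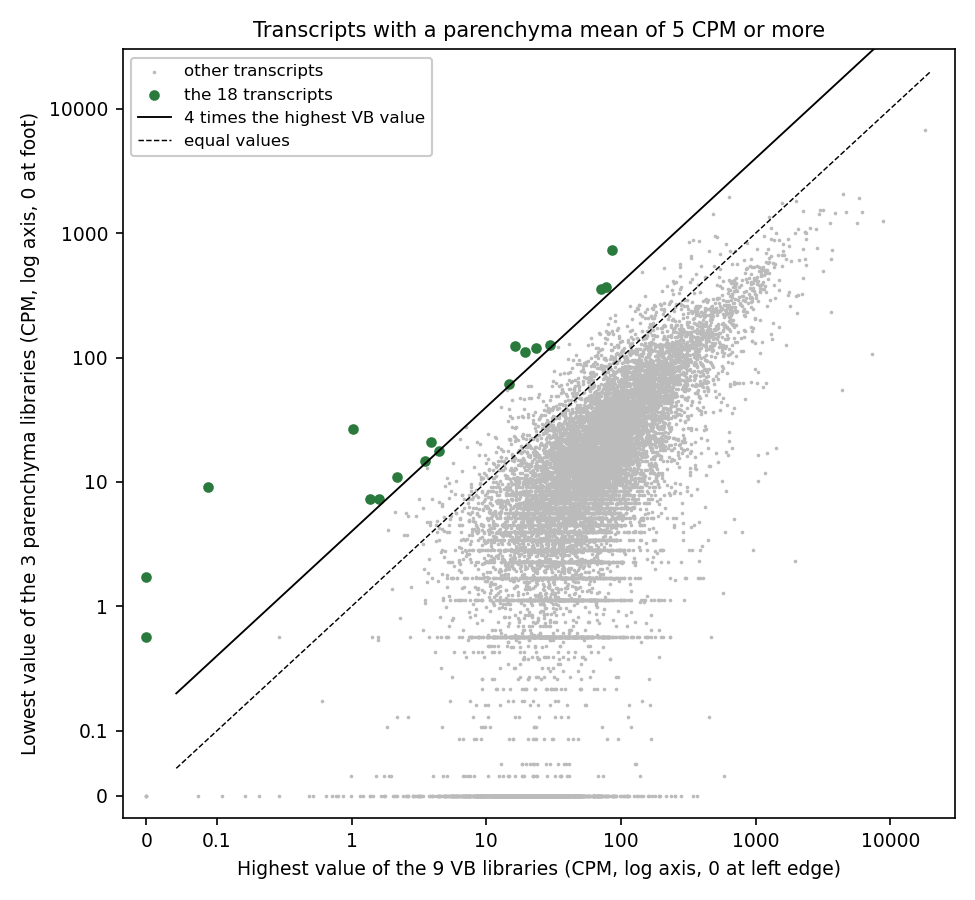
Lowest of the 3 parenchyma values against highest of the 9 VB values, both in CPM on log axes, for the 13855 transcripts with a parenchyma mean of 5 CPM or more, with the 18 in green and lines at equal values and at 4-fold. Of the 18, 13 lie between the 4-fold line and an 8-fold ratio, 2 lie at 0 on the VB axis, and Bradi2g26490.1 and Bradi4g04310.1 stand away from both.

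Where the limit fell can be read from the transcripts on either side. Just inside were Bradi1g66280.2 (ratio 4.01), Bradi2g52090.1 (4.14) and Bradi3g58915.1 (4.16). Just outside was Bradi5g12370.1, a DEG8-like protease of the chloroplast (3.90). So were Bradi1g66296.1, closest to the PsbP-like protein PPL2 (3.85), and Bradi2g18030.1, a polygalacturonase that cuts pectin (3.57). Bradi1g66296.1 had 61.1, 54.6 and 60.0 CPM in parenchyma and up to 14.2 CPM in VBs.

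Per kilobase of transcript, the parenchyma means of Bradi5g23770.1 (478 CPM per kb), Bradi4g04987.2 (352), Bradi5g11912.1 (271), Bradi2g43062.1 (192) and Bradi1g78240.1 (161) were the highest of the set, with SDs that overlapped between neighbours in this order. The lowest was that of Bradi3g03200.3, at 2.40 CPM per kb. Across the set, the parenchyma mean ranged from 5.54 to 967 CPM with a median of 43.8 CPM, and 7 transcripts exceeded 100 CPM. The fold between the highest and lowest parenchyma library ranged from 1.21 to 23.0 with a median of 2.20. Over the transcripts with a mean of 5 CPM or more the median was 3.19, leaving out 1119 with 0 in a parenchyma library. The rule favours a high lowest parenchyma value, so a smaller spread is partly built into the set. Parenchyma replicate 3 was the lowest for 10 of the 18 (55.6%), against 57.8% of all transcripts with a mean of 5 CPM or more. The share of the set was near that background. The set moved with this replicate: without parenchyma replicate 3 the rule gave 77 transcripts, including all 18, and without parenchyma replicate 1 it gave 36, of which 16 were in the set. Without VB type 1 replicate 3 it gave 28, including all 18. By the rule, leaving out a VB library can only keep or enlarge the set. Leaving out a parenchyma library can remove a transcript only through the mean of 5 CPM. Keeping Bradi2g12067.1 in the totals left only Bradi2g26490.1 and Bradi4g04310.1.

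Within VB libraries the 18 transcripts did not keep a common ratio to parenchyma. Their median level was 0.0737% of the parenchyma mean in VB type 1 replicate 1 and 2.27% in VB type 1 replicate 3, the lowest and highest of the 9 libraries. In VB type 1 replicate 3, Bradi1g71370.1 stood at 14.9%, Bradi4g04987.2 at 13.6%, Bradi2g43062.1 at 13.0% and Bradi1g58210.1 at 10.8%, whereas 7 transcripts were at 0. In VB type 1 replicate 1, Bradi2g43062.1 stood at 16.9% and Bradi5g11912.1 at 13.9%, and no other exceeded 3.41%. The highest VB value fell in VB type 1 replicate 3 for 5 of the 16 transcripts with VB pairs and in VB type 3 replicate 2 for 3.

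**Figure D3:**
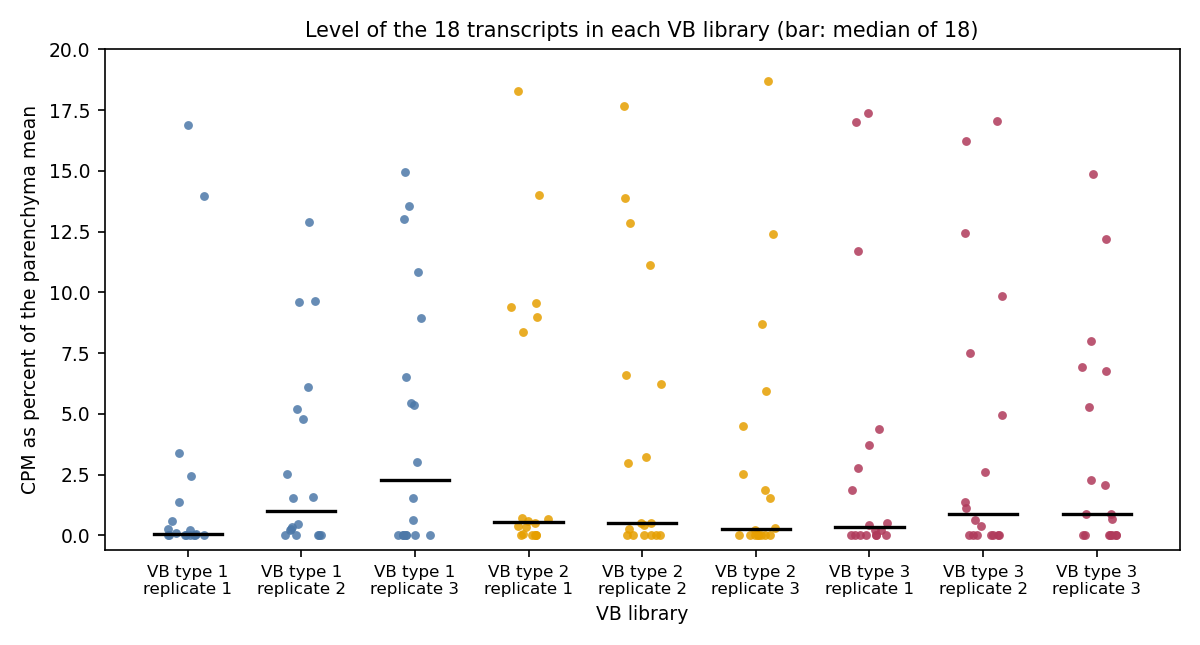
Level of each of the 18 transcripts in each of the 9 VB libraries, as percent of its mean in parenchyma, with the median as a bar. The highest median is 2.27%, and the highest single transcript of each library stands at 12.9 to 18.7%.

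Whether the residual level differed between VB types was not part of the rule and could be tested. The rule caps the highest VB library, however, which limited how far a transcript of the set could rise in any VB type. An absence of calls therefore does not show equal levels. For each pair of types, transcripts that reached 1 CPM in 3 or more of the 6 libraries were compared by the quasi-likelihood test of edgeR on TMM-scaled totals, with Benjamini-Hochberg adjustment over all transcripts. VB type 2 was compared with type 1 for 10 of the 18 transcripts, VB type 3 with type 1 for 8, and VB type 3 with type 2 for 9. None of the 18 was called in these comparisons, and of all transcripts tested 0% were called in each. In this test an unadjusted p under 0.05 was given to 1 of 10, 0 of 8 and 0 of 9 tested transcripts of the set. Of all transcripts tested, it was given to 413 of 18570, 504 of 18504 and 451 of 18094. DESeq2 called none of the set either, and 26, 22 and 15 of all transcripts (0.14%, 0.119% and 0.0829%). The likelihood ratio test of edgeR called 1, 0 and 0 of the set and 31, 24 and 4 of all (0.167%, 0.13% and 0.0221%). The intervals were wide: in VB type 3 against type 1 the log2 fold change of Bradi1g78240.1 was -1.35 with a 95% interval from -4.83 to 2.13. The most even was Bradi2g43062.1, at -0.21 with an interval from -1.05 to 0.63.

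**Figure D4:**
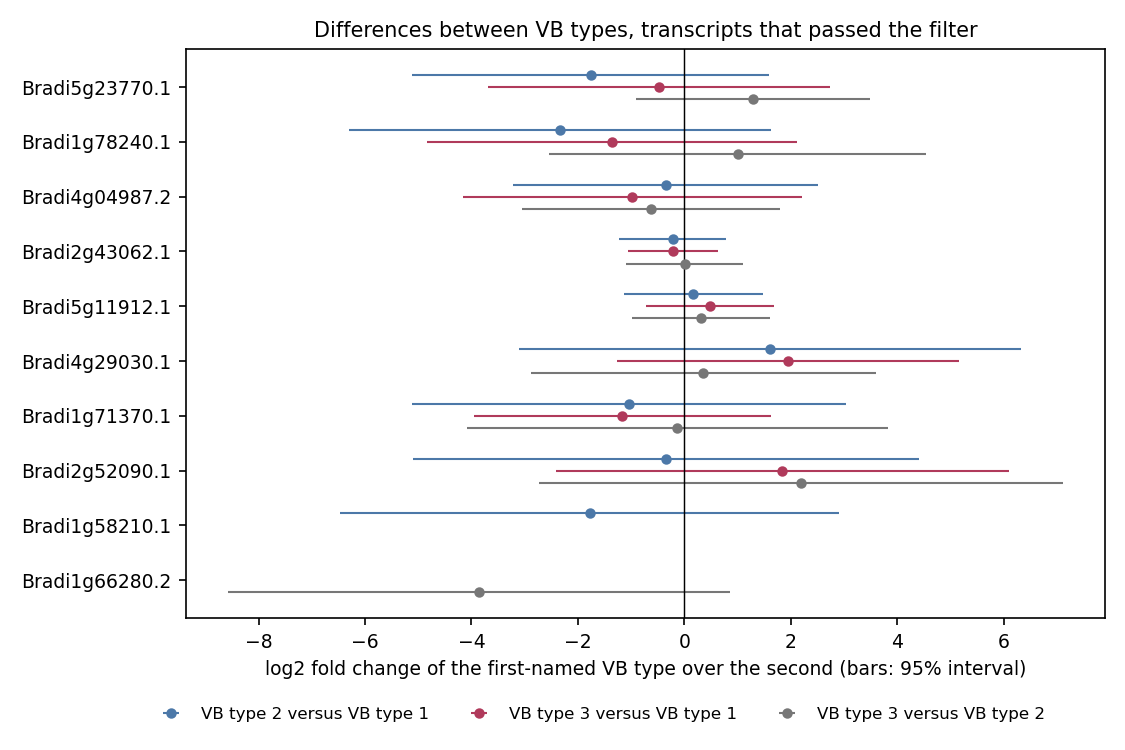
Log2 fold change between VB types, with 95% intervals derived from the F statistic of edgeR's quasi-likelihood test, for the transcripts that passed the filter in each comparison. Every interval drawn includes 0, and those of Bradi2g43062.1 and Bradi5g11912.1 are the narrowest. Bradi1g66280.2 in VB type 2 against type 1 is left out. Its fitted log2 fold change was 8.25, with a 95% interval from 3.34 to 13.2 that excludes 0. All VB type 1 libraries were at 0 for it, so the size of that fold and its interval are uncertain.

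Bradi1g66280.2, described as a plant protein of unknown function, was the transcript with that unadjusted p. It had 19.8, 17.9 and 33.9 CPM in parenchyma, and 2.25, 2.65 and 4.46 CPM in VB type 2, from 26, 28 and 61 pairs. All 3 libraries of VB type 1 had 0 pairs, and VB type 3 had 0.661, 0 and 0 CPM. VB type 2 thus overlapped neither of the other types and, at 3.12 ± 1.18 CPM (SD, n = 3), was at least 10.8-fold above the limit of 3 pairs in VB type 1. In edgeR's quasi-likelihood test this reached an unadjusted p of 0.00643 and an adjusted p of 1.00, whereas edgeR's likelihood ratio test gave an adjusted p of 0.0283. In 10 further settings of the quasi-likelihood test the adjusted p was 0.943 to 1.00, DESeq2 gave an unadjusted p of 0.000987 and no adjusted p, and without any of the VB type 2 libraries the transcript did not pass the filter. Against VB type 3, the log2 fold change was -3.86 (95% interval -8.57 to 0.86, adjusted p = 1.00 in edgeR's quasi-likelihood test).

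Libraries of the types did not overlap for 1 transcript of the set in each comparison. It was Bradi1g66280.2 for VB type 2 against type 1 and for VB type 3 against type 2, and Bradi4g29030.1, higher in VB type 3 than in type 1. Bradi4g29030.1 had 0, 3.49 and 7.42 CPM in VB type 1 and 23.5, 13.6 and 9.56 CPM in VB type 3, a log2 fold change of 1.95 (95% interval -1.26 to 5.16, adjusted p = 1.00 in edgeR's quasi-likelihood test). Over all transcripts tested, 8.14%, 8.5% and 8.77% did not overlap in these 3 comparisons, so the count in the set, 1 of 8 to 10, was near the background.

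Summed over the 18 transcripts, the level was 2957, 4285 and 2470 CPM in parenchyma. It was 111, 97.3 and 278 CPM in VB type 1, 148, 159 and 93.4 CPM in VB type 2, and 134, 176 and 148 CPM in VB type 3. The means of 162 ± 100.3, 133 ± 35.1 and 152 ± 21.1 CPM (SD, n = 3 each) in types 1, 2 and 3 overlapped. An exact permutation test over the 9 VB libraries gave p = 0.936 for a difference between types, where the smallest p that 1680 arrangements allow is 0.00357. Bradi2g43062.1 alone made up 20.6 to 66.8% of the sum in the VB libraries and 9.22 to 22.5% in parenchyma.

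Against the average of the 3 VB types on the log scale, 10 of the 18 transcripts passed a filter of 1 CPM or more in 6 of 12 libraries. The calls of these 10, all lower in VBs by edgeR's quasi-likelihood test, were fixed by the rule, which used the same values, and are no test of the set. In this fit 4.66% of the 17673 transcripts tested were called in either direction and 3.58% were called lower. Of all transcripts 191 were called higher and 633 lower, and on library totals without TMM 252 and 336, where the median log2 fold change of all transcripts moved from 0.01 to 0.33.

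Among related transcripts, lipid transfer proteins were described for 20 transcripts, 2 of them in the set. Of the 15 tested, 8 were called lower and none higher in VBs. Their median log2 fold change was -3.23, beside 0.01 over all transcripts. The 8 and the median include the 2 of the set, whose direction the rule fixed. The study listed many lipid transfer transcripts for differing in these same libraries, so the counts are not independent evidence. Bradi3g33060.1 (LTPL147 family) had 879, 2278 and 166 CPM in parenchyma and 23.9 to 119.6 CPM in VBs. Its log2 fold change was -4.60 (SE 0.49, adjusted p = 0.000316, edgeR's quasi-likelihood test), and its lowest parenchyma value was 1.39 times the highest VB value.

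The other lists that held a transcript of the set ranged from mostly lower calls to mixed directions. Of 32 small molecule carriers tested, which include Bradi2g43062.1 and Bradi1g71370.1, 17 were called lower in VBs and 1 higher by the same test, with a median log2 fold change of -2.47. Terpenoid and gibberellin synthesis, with Bradi4g04987.2, had 3 of 11 lower and none higher, with a median of -2.60. Cell wall loosening and pectin, where the inhibitor Bradi5g11090.2 was matched by its description, had 5 lower and 6 higher of 25, with a median of 0.39. These counts and medians include the transcripts of the set that passed the filter, whose direction the rule fixed. Of all 17673 transcripts tested, 633 were called lower and 191 higher. The study listed many of the transcripts of these lists for differing in these same libraries, so the counts are not independent evidence.

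Neighbouring loci were compared by locus number. Of 36 flanking transcripts, 12 had a parenchyma mean of 5 CPM or more and in 1 of these 12 the parenchyma libraries lay above all VB libraries, beside the 3.49% given above. It was Bradi1g78246.1, a thionin by description, a small antimicrobial peptide, next to the lipid transfer protein Bradi1g78240.1, with 115, 370 and 126 CPM in parenchyma and 84.6 CPM in VB type 1 replicate 3. None of the flanking transcripts was in the set. Both Bradi4g04987.2 and Bradi3g58915.1 had a flanking transcript of the same description outside the set. The terpene synthase Bradi4g04965.2 had 84.2, 180 and 88.8 CPM in parenchyma, which overlapped its VB range of 0.483 to 133 CPM. The PLAT/LH2 transcript Bradi3g58920.1 had 652, 744 and 95.02 CPM in parenchyma and 16.5 to 107 CPM in VBs. Beyond the thionin, the lipid transfer transcript Bradi1g78250.1 also lies close to Bradi1g78240.1 by number. It had 413, 922 and 144 CPM in parenchyma and up to 76.6 CPM in VBs, and its lowest parenchyma value was 1.87 times the highest VB value. Pairs that matched several transcripts were not counted, so values of such similar copies are uncertain.

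No gene that the study names for the ERECTA pathway was in the set. ERECTA is a receptor kinase at the cell surface, and its EPFL ligands are small secreted peptides. BdERECTA (Bradi1g46450.1) had 340, 382 and 256 CPM in parenchyma and 187 to 669 CPM in VBs, and BdERECTA-like1 (Bradi1g49950.1) had 27.1 to 79.3 CPM and 39.7 to 189 CPM. Thus both receptors overlapped between the tissues. EPFL1 (Bradi3g38740.1) came nearest to the set among the ligands. With 22.4, 34.2 and 100.7 CPM in parenchyma and 7.53 to 21.7 CPM in VBs, its groups did not overlap, but its lowest parenchyma value was only 1.03 times the highest VB value. EPFL2, EPFL4, EPFL6 and EPFL9 overlapped between the tissues, and EPFL3 was at 0 in 8 of 12 libraries. An ACC oxidase (Bradi4g31820.1), which makes ethylene, had 209, 302 and 48.1 CPM in parenchyma and reached 62.5 CPM in VB type 2 replicate 1.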

How the data were processed

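RNA of 12 laser-dissected libraries was analysed, grouped by their titles. The authors trimmed reads (Trimmomatic), removed ribosomal reads (sortMeRNA), aligned the rest to transcripts with Bowtie 2 and deposited, per transcript, the counts of read pairs and of reads, with pairs of several hits removed and no normalization. The labels call the libraries not stranded and the paper stranded, so overlapping transcripts on opposite strands may not be told apart. Pair counts were analysed, and the set rule, CPM and ratios were computed from them. Tests used R 4.3.3 with edgeR 4.0.16 (quasi-likelihood test, TMM normalization), with DESeq2 1.42.0 and edgeR's likelihood ratio test, which the paper's methods name, as alternatives, and an adjusted p threshold of 0.05. A ratio to a VB value below 3 pairs used that limit. Simulated counts for VB type 2 against type 1, on 17390 transcripts with 200 changed 16-fold, led to calls for 122 of the changed and 5 unchanged transcripts. The changed transcripts were drawn from those with a mean of 5 CPM or more. Lower transcripts, among them several of the set, were thus not covered.

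Named are the 10 transcripts of the set with the largest margin and the 10 with the highest parenchyma mean. Also named are the 3 on either side of the limit and up to 4 per word list. The ERECTA family genes, the bundle markers, the phloem sugar transporter loci and neighbouring loci are named too. The remaining transcripts of the set, flanking loci and an ACC oxidase were named after their values were seen. Members and lists were chosen with earlier results of these data known. Descriptions came from the study's tables, which describe 2078 transcripts. A table whose descriptions stood on other rows than their genes was not used. RefSeq identifiers matched 0 of the 34310 transcripts, so coordinates, sequences and promoter motifs are not given.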

Additional observations from a re-analysis of the deposited data

How the results depend on the processing

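The size of the set moved with the rule and with single libraries. It was 2 with Bradi2g12067.1 kept in the totals, 5 at an 8-fold limit, 27 at a 3-fold limit and 25 on TMM-normalized totals, and leaving out each library gave 18 to 77. It was 28 without VB type 1 replicate 3, where the rule allows only the same or a larger set. Read counts, chosen after seeing the data in place of the planned sum of pairs and reads (the read count already holds the reads of pairs), gave 17 transcripts, 15 of them in the set. Of the 18, 0 to 1 were called between VB types: the likelihood ratio test called 1 (Bradi1g66280.2, adjusted p = 0.0283) in VB type 2 against type 1, and every fit without 1 library called 0. Against parenchyma, the contrast that the rule used, counts of calls were fixed by the rule or by the filter and support nothing: 10 of 10 tested, 18 of 18 with only all-zero transcripts removed and 16 of 17 at 1 CPM in 3 of 12 libraries, which low transcripts pass through parenchyma alone, and 6 to 10 with each library left out (6 without parenchyma replicate 3). Of all transcripts, 824 were called against parenchyma by the quasi-likelihood test, 1772 by the likelihood ratio test and 1929 by DESeq2. Between VB types those counts were 0 against 31, 24 and 4 by the likelihood ratio test and 26, 22 and 15 by DESeq2. The p of the summed level was 0.839 to 0.975 under other settings and 0.246 to 0.996 with each VB library left out.

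Same-numbered VB libraries of different types deviated together by correlations of -0.0597 to 0.456 across genes. Between different numbers the correlations were -0.379 to 0.143. For type 2 with 1, 3 with 1 and 3 with 2, 4, 4 and 5 of 6 libraries correlated best with their own number. Whether the numbers mark a pairing was not established. The replicate block changed the median log2 fold change of the set from -0.34, -0.34 and 0.32 to 0.17, 0.25 and 0.54 in these comparisons. With the replicate block, the number of the 18 called was 0 in each comparison of VB types and 10 against parenchyma, and of all transcripts 768 in place of 824. An exact permutation test of types within replicate number gave p = 0.944 for the summed level. Depth limits mainly the values of parenchyma replicate 3.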

Other observations

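Some gene groups with many transcripts called lower in VBs had none in the set. Of 33 tested transcripts of photosystems and light harvesting, the thylakoid proteins that capture light, 31 were called lower in VBs and 0 higher by edgeR's quasi-likelihood test, with a median log2 fold change of -2.32. Chlorophyll synthesis had 7 of 7 lower (median -2.44), starch synthesis 9 of 11 (median -2.50) and nitrate uptake and assimilation 5 of 6 (median -3.62). Of all transcripts tested, 3.58% were called lower. These lists were made from words in the study's tables, which list transcripts for differing in these libraries, so their counts are not independent evidence.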
